A study of Mus musculus with 2 samples.

Results

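The cells described here carry alpha-defensin transcripts of the small intestine, although they were captured from mouse thymus. They are the Paneth-like cells of the conditional Ets1 knockout (cKO) library, 136 of the 21308 barcodes deposited for both libraries. They were chosen by measured counts. A barcode of the cKO library with at least 500 genes, at most 10% of its UMIs (unique molecular identifiers, each counting 1 captured transcript) on mitochondrial genes and no Cd3d, Cd3e or Cd3g UMI was given 3 sums. P summed the Defa genes, Lyz1 and Itln1. G summed the goblet cell genes Zg16, Agr2, Muc2, Tff3, Fcgbp and Clca1. E summed the enterocyte genes Fabp6, Fabp2, Fabp1 and Apoa1. A member had P, G and E together at 3% or more of its UMIs and P as the largest of them. The 136 cells made up 2.30% of the 5903 cKO barcodes past the gene and mitochondrial filters (exact Clopper-Pearson 95% interval, 1.94% to 2.72%). The same rule with G or E as the largest sum took 424 goblet-like and 978 enterocyte-like cells, so the Paneth-like cells were 8.84% (7.47% to 10.4%) of the 1538 cells of the 3 classes. In the control library 0 of 7395 filtered barcodes met the rule, which allows a share of up to 0.0406%.

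The study measured single-cell RNA in YFP+ cells sorted from the thymus of Tbx21Cre Rosa26-YFP+ mice (control) and of Tbx21Cre Ets1F/F Rosa26-YFP+ mice (cKO), in which Ets1, the gene of an ETS family transcription factor, is floxed. Mice of both groups carry the Tbx21-driven Cre and the YFP reporter, so YFP marks cells that have expressed Tbx21, the gene of the T cell transcription factor T-bet. Each genotype gave 1 library of cells from 2 mice, and the cells of the mice in a library cannot be assigned to either mouse. No test was therefore run, and all intervals are 95% intervals that cover counting error alone. A property of the cKO library and an effect of genotype cannot be told apart.

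Paneth cells sit at the base of small intestinal crypts between the Lgr5+ stem cells. They secrete granules of antimicrobial proteins, among them alpha-defensins, lysozyme, intelectin and angiogenin 4, and give the stem cells Wnt and Notch signals. Alpha-defensins are made as precursors, which in mice are cut to active peptides by matrilysin, the product of Mmp7. Paneth cells share a secretory origin with goblet cells, which make mucus, and both differ from the absorptive enterocytes. The thymus has no crypts, but its medullary epithelium is known to express genes of other tissues.

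The members' counts were led by a pair of defensin genes, Defa24 and Defa30, whose coding sequences are shown because they are near copies. Defa24 (chr8:21734494-21735471 on the plus strand of GRCm38) and Defa30 (chr8:21134642-21135598, plus strand) lie in the alpha-defensin cluster. All 22 Defa genes in P lie between 21025545 and 21735471 of chromosome 8. The coding sequences of Defa24 and Defa30, from GENCODE vM21, are 279 bases long and identical at 275 of them (98.6%). AY761184 (chr8:21702519-21703645, minus strand), which the rule did not use because of its name, overlaps the RefSeq gene Defa39. Its coding sequence has 348 bases and matches that of Defa24 at 61.9% of aligned positions. Capitals mark the cysteine codons of the open reading frame, 6 in each of the pair printed here; AY761184 has 11.
Defa24: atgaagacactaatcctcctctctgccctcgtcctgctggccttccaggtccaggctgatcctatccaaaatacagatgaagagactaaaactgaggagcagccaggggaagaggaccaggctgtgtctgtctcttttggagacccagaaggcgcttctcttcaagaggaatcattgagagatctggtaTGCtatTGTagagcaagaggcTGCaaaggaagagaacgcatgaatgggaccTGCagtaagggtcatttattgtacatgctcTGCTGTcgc
Defa30: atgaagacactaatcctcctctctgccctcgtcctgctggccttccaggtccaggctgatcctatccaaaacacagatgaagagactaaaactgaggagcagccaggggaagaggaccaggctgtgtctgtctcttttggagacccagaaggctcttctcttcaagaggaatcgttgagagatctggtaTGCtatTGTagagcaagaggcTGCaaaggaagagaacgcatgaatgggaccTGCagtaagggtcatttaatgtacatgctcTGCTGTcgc

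The 3' libraries read the ends of transcripts, and the copies differ in how well they can be told apart there. Of the 60-base words in the last 500 bases of the annotated transcripts, 81.1% were found in no other gene for Defa24 and 58.1% for Defa30. Of the 22 Defa genes, 6 had no word of their own, namely Defa2, Defa20, Defa31, Defa32, Defa33 and Defa37. These had at most 12 UMIs each in the members, and 4 of them had 0. Among Defa genes with more UMIs, the share of own words was 8.28% for Defa17, 10.3% for Defa3, 19.6% for Defa34 and 0.32% for Defa5. For Defa35, Defa29 and Defa27 it was 50.4%, 69.8% and 56.9%. Counts of the smaller Defa genes, and their order, are therefore uncertain as to the gene.

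The promoters of the cluster share short words, shown for Defa30 and Defa35, which were among the Defa genes with the most UMIs. RefSeq promoter sequences on GRCm38.p6, from 250 bases before to 50 bases after the start, were searched on both strands for CTTTGAT, which reads as ATCAAAG on the other strand and is a word bound by TCF factors of the Wnt pathway, and for TATAAA, the TATA box. The word CTTTGAT was in 13 of 16 alpha-defensin promoters and in 3.73% of all 32851 promoters. The TATA box word was in 15 of the 16 and in 13.6% of all. The set held no promoter of Defa24, and some of the 16, such as that of Defa38, belong to genes not summed in P. The 16 are promoters of related gene copies, so they are not independent cases. The windows of Itln1, Ang4 and Lyz1 held neither word. Capitals mark the matches in the windows chr8:21134400-21134699 for Defa30 and chr8:21064788-21065087 for Defa35, both on the plus strand.
Defa30: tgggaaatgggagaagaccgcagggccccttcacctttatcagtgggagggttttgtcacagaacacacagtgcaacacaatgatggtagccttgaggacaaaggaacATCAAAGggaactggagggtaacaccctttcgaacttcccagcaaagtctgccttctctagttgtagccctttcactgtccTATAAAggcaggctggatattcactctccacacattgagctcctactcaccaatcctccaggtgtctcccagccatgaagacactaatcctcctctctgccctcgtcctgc
Defa35: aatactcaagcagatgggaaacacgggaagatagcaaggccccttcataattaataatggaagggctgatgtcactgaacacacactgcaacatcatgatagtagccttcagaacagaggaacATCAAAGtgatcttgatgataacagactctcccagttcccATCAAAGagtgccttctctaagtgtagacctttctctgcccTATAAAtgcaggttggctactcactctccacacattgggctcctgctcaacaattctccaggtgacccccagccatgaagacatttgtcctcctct
A match describes these letters and says nothing of a factor at the site.

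The members were shallow. They held 684 to 13543 UMIs with a median of 1533, against a median of 5533 over all filtered cKO barcodes, and a median of 840 genes and of 6.34% mitochondrial UMIs. Goblet-like and enterocyte-like cells were as shallow, with medians of 1539 and 1278 UMIs, while T cell barcodes (at least 2 UMIs of the 3 Cd3 genes, and P, G and E together under 3%) had a median of 7047. The P share was 1.33% at its lowest, 5.82% at the median and 70.0% at its highest. P was under 10% in 106 members and at least 20% in 9. It was at least 2 times the next sum in 52 members and under 1.2 times it in 39. An E UMI was found in 132 members and a G UMI in all 136. Just inside the threshold, 9 members had the 3 sums together at 3.04% to 3.98%, and just outside, 5 barcodes led by P had 2.32% to 2.70%. No barcode sequence of the members occurred in the control library, with which the cKO library shared 29.

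**Figure D1:**
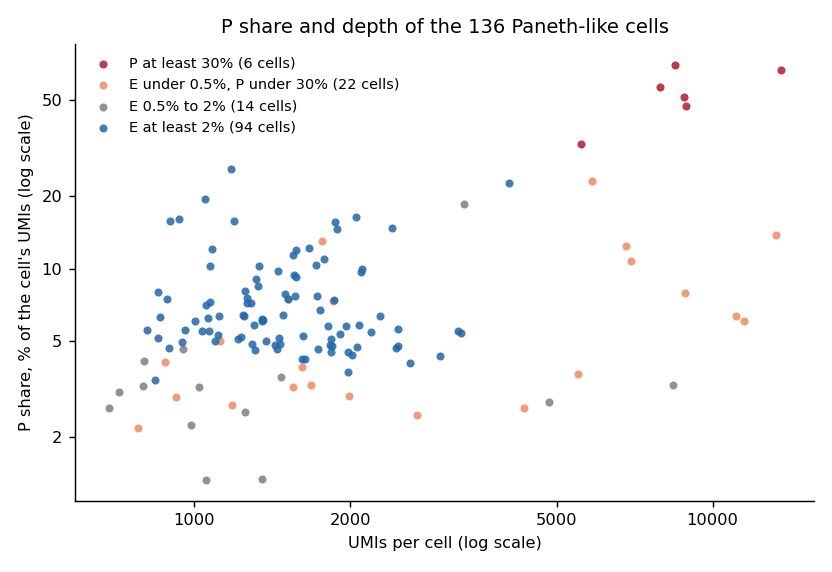
P share of each of the 136 Paneth-like cells against its UMIs, both on log axes, coloured by ranges of P and E chosen after the values were seen. The 6 cells with P of at least 30% all hold at least 5579 UMIs, and the 94 cells with E of at least 2% hold at most 4047.

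The members fell into unlike ranges of the E sum, set after the values were seen. E was under 0.5% in 28 members, from 0.5% to 2% in 14 and at least 2% in 94. Of the 28, 6 had P at 30% or more and are called P-rich below. The 6 P-rich cells held 32.7%, 47.2%, 51.5%, 56.6%, 66.5% and 70.0% of their UMIs on P genes, with E at 0.05% or less in each. They had 5579 to 13543 UMIs and together no Fabp6 UMI, 3 Zg16 UMIs, and no Ptprc or Lgr5 UMI. Their mitochondrial share was 1.29% to 3.46%. These 6 cells gave 58.8% of all P UMIs of the members and 16.5% of all their UMIs, and the deepest of them alone gave 17.7% of P. Every level summed over the members therefore leans on them.

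**Figure D2:**
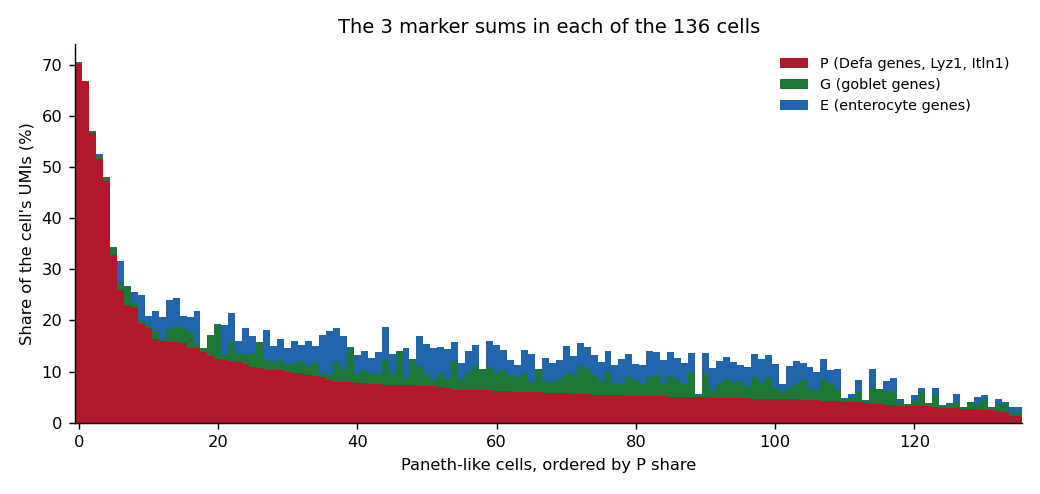
The share of UMIs on P, G and E genes in each Paneth-like cell, stacked and ordered by P. P alone fills the bars of the 6 leading cells, while most of the remaining bars hold all 3 colours.

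The Paneth label was set beside genes outside the rule. The first ranking is over all other filtered cKO barcodes, which are mostly T cell barcodes (3401 of the 5903 filtered). A high ratio there therefore does not tell Paneth cells from other gut cells. Among genes at 100 CPM or more (summed counts scaled to a fixed total of UMIs, the usual counts-per-million scale), 4 of the 10 with the highest ratio over all other filtered cKO barcodes were Paneth genes that the rule did not use (Gm15293, AY761184, Ang4 and Gm15292), and the other 6 were Defa genes. Of these 4, Gm15293, AY761184 and Gm15292 overlap the RefSeq genes Defa41, Defa39 and Defa40 of the same cluster. Only Ang4 thus lies outside the defensin family that chose the cells. The P-rich cells, the other 22 with E under 0.5% and the 94 with E of at least 2% each had Paneth genes outside the rule among their 10 leading genes. In the P-rich cells these were only AY761184, Gm15293 and Gm15292. Those of the 22 included Mmp7 and Mptx1, and those of the 94 included Pnliprp2, Clps and Ang4. The 10 leading genes of the 22 also held Reg4 and the goblet gene Retnlb. Those of the 94 also held the globin genes Hbb-bs at rank 2 and Hba-a1 at rank 6. The 14 members with E from 0.5% to 2% had no Paneth gene among their 10 leading genes. Their leaders, such as Msx1, Bdnf, Stbd1 and Tmem100, rest on 3 to 5 UMIs each, so their order says little at this depth. AY761184 was at 1304 CPM in these 14 cells, in 12 of them, beside 896 CPM in the 94. Goblet genes outside the rule were also abundant. Their sum came to 43850 CPM in the members, above the 27410 CPM of the Paneth genes outside the rule and beside 36140 CPM in goblet-like cells. In the 22 it came to 86450 CPM against 43510 in goblet-like cells with E under 0.5%, while the Paneth genes outside the rule came to 34470, of which Mptx1 gave 27010. Most of the 86450 came from Spink4 at 48680 and Retnlb at 22400, against 21300 and 7646 in those goblet-like cells. The remaining goblet genes went both ways. Creb3l1 was at 128 against 267 and Tpsg1 at 181 against 331, while Ccl6 was at 3073 against 1671.

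The P genes themselves are given as a description, since they chose the cells. Defa24 stood at 65830 CPM (exact Poisson interval, 64950 to 66720) and had a UMI in 136 of 136 members. Defa30 stood at 47290 CPM (46550 to 48050), in 131 members. Itln1, the gene of intelectin 1, a lectin that binds microbial sugars, was at 17040 CPM (16600 to 17500), and Lyz1, the Paneth lysozyme, at 16190 (15760 to 16640). Lyz2, the lysozyme of macrophages and a near copy of Lyz1, had 9 UMIs in the members. Of the 22 Defa genes, 16 were detected and 14 reached 20 CPM. After Defa24 and Defa30 came Defa35 at 3501 CPM, Defa29 at 1839, Defa17 at 1693, Defa27 at 1532, Defa3 at 1229 and Defa34 at 777. The remaining Defa genes at 20 CPM or more, namely Defa5, Defa26, Defa22, Defa36, Defa20 and Defa21, ranged from 393 down to 21.7 CPM. Defa2, Defa23, Defa25, Defa31, Defa33 and Defa37 had 0 UMIs, which allows up to 9.29 CPM each. As shares of P, Defa24 gave 41.7%, Defa30 29.96%, Itln1 10.8%, Lyz1 10.3% and the other Defa genes 7.30%.

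P transcripts were also counted in other barcodes of the cKO library. In T cell barcodes they came to 19.1 CPM (17.5 to 20.9), with a P UMI in 289 of 3401 (8.50%), against 157900 CPM in the members. In control T cell barcodes they came to 0.224 CPM (0.0901 to 0.462), in 7 of 6807 barcodes (0.103%) with a median of 2890 UMIs. Within the P UMIs of cKO T cell barcodes, Defa24 gave 46.0%, Defa30 19.3%, Lyz1 17.1% and Itln1 10.6%. Goblet-like and enterocyte-like cells carried them at higher levels, with Defa24 at 5972 and 4259 CPM.

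The balance of Defa24 and Defa30 differed between the ranges of members. Defa24 gave 58.2% (57.7% to 58.7%) of the summed Defa24 and Defa30 UMIs over all members, and from 18.3% to 100% in single cells with a median of 52.7%. It gave 80.7% (79.7% to 81.7%) in the 22 members with E under 0.5% outside the P-rich cells, where every cell lay at 56.9% or above. It gave 42.8% (41.7% to 43.9%) in the 94 members with E of at least 2%, of which 34 lay at 50% or above. In the 14 members with E from 0.5% to 2% it gave 52.1% (48.8% to 55.4%) of the sum. Their median cell lay at 82.0%, with 11 cells at 50% or above, so the sum did not describe the typical cell. Defa24 was also counted in each P-rich cell. Among the P-rich cells it ranged from 21.4% to 67.8%, and 5 of the 6 lay above 50%. The cell at 21.4% held 768 Defa24 and 2814 Defa30 UMIs and no Mptx1 or Retnlb UMI, whereas each of the other 5 held 127 to 484 Mptx1 and 109 to 371 Retnlb UMIs. Goblet-like cells with E under 0.5% held nearly all of the Defa24 and Defa30 sum as Defa24, at 95.9% (95.2% to 96.5%), with Defa30 at 233 CPM. Over all goblet-like cells the share was 77.0% (76.1% to 77.9%). In enterocyte-like cells it was 55.7% (54.85% to 56.55%), near the 58.2% of the members. These values are sums over cells of 1 library and describe it without a test.

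**Figure D3:**
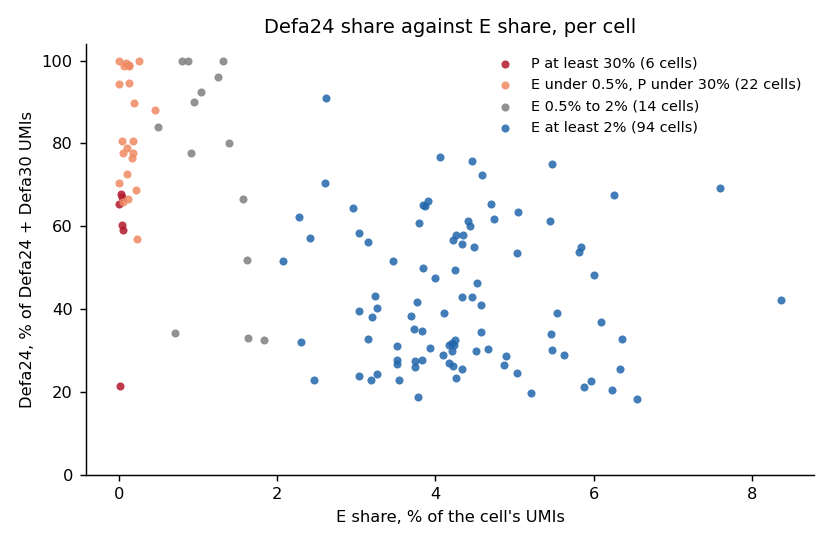
Defa24 as a percentage of Defa24 plus Defa30 UMIs against the E share, for each Paneth-like cell, coloured by range. The 22 orange cells near E of 0 all lie at 56.9% or above, while the 94 blue cells spread from 18.3% to 90.9%.

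Paneth genes that the rule did not use were higher in the members than in the other gut classes, although these classes were set apart by related genes and the ratios are descriptions. AY761184, a defensin-related gene, stood at 2483 CPM (2314 to 2661) in the members, 58.8 in goblet-like and 92.3 in enterocyte-like cells. It was 42.0-fold higher (exact conditional binomial interval, 32.9 to 55.04) than in goblet-like cells. Ang4, an antimicrobial ribonuclease, stood at 1136 CPM (1023 to 1259) against 55.3 and 60.6, and was 20.4-fold higher (15.7 to 27.3) than in goblet-like cells. Mmp7 stood at 1693 CPM (1554 to 1841) against 353 and 163, which was 4.80-fold (4.21 to 5.47) over goblet-like and 10.4-fold (9.003 to 12.1) over enterocyte-like cells. The predicted defensin genes Gm14851, Gm15292 and Gm15293, which overlap the RefSeq genes Defa38, Defa40 and Defa41, stood at 675, 783 and 220 CPM in the members and at 4.39 to 24.6 CPM in goblet-like cells. Clps and Pnliprp2, genes of pancreatic-type lipid digestion (colipase and a lipase-related protein), stood at 889 and 461 CPM against 64.0 and 20.2 in goblet-like cells.

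The rest of the Paneth list was less uniform. Of its 26 genes 20 were in the files and 18 reached 20 CPM in either class. Of these 18, 14 were at least 2-fold higher in the members than in goblet-like cells and 0 lower, with a median log2 ratio of 2.14. Over all 6135 genes compared, leaving out those of the rule, 9.19% were higher by that fold and 7.47% lower, with a median of -0.12. Against enterocyte-like cells 14 of 18 were higher and 2 lower (median 3.05), beside 9.45% higher (591) and 15.3% lower (957) over 6253 genes. With CPM taken over genes outside the rule, which moved the median of all genes from -0.12 to 0.05, the counts were 893 higher and 846 lower. Both lower genes, Reg3b and Reg3g, encode antimicrobial lectins that enterocytes also make. Reg3b was at 1681 CPM in the members, 1355 in goblet-like and 9232 in enterocyte-like cells, and had 0 UMIs in the P-rich cells. Mptx1, of the pentraxin family, was at 14170 CPM against 5074 and 2632. Its relative Mptx2 was at 217 against 83.3 and 31.1. Sox9, a transcription factor that Paneth cells need, was at 99.1 CPM against 109 in goblet-like and 38.6 in enterocyte-like cells. Without the 6 P-rich cells 13 of 18 genes were higher than in goblet-like cells, with a median of 1.82. Leaving out the deepest cells, as for the goblet genes below, lowered this to 11 of 18, with a median of 1.25. By the mean of per-cell CPM 12 of 18 were higher, with a median of 1.355. The own sum at 2 times the next went the other way, with 16 of 18 higher and a median of 3.32. In each of these settings 0 were lower.

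**Figure D4:**
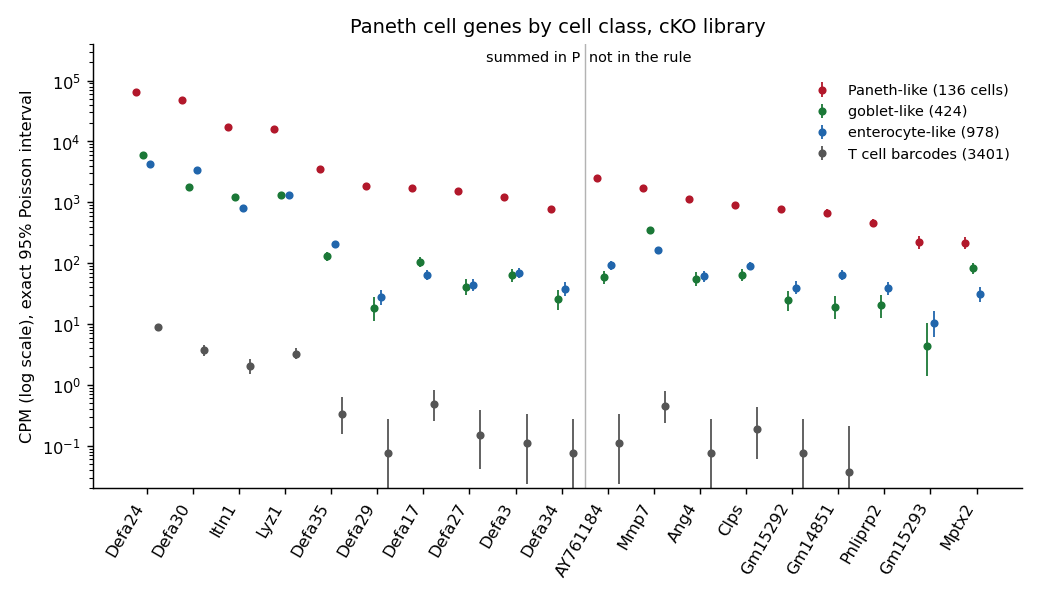
CPM with exact Poisson intervals, on a log axis, of P genes and of Paneth genes outside the rule in 4 classes of cKO barcodes. Values of 0 are not drawn. The Paneth-like cells stand highest for every gene plotted and the T cell barcodes lowest.

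These genes were detected in part of the members. A UMI of Ang4 was found in 57 members (41.9%), of Mmp7 in 86 (63.2%) and of AY761184 in 87 (64.0%). With each cell thinned to 1000 UMIs, which left out 20 members, the shares were 34.5%, 53.4% and 50.9%. For goblet-like cells of that depth they were 8.62%, 28.9% and 5.85%. In T cell barcodes, which should lack these genes, the unthinned shares were 0.0588%, 0.353% and 0.0882% at a median of 7047 UMIs.

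Levels outside the rule differed by range, here as CPM over the UMIs of genes outside the rule, so that P does not dilute them. Ang4 stood at 10800 in the P-rich cells, where the 6 cells held 5, 13, 35, 49, 102 and 43 UMIs in the order of P share. It stood at 340 in the other 22 members with E under 0.5%, with a UMI in 2 of them, and at 640 in the 94 with E of at least 2%, with a UMI in 46. AY761184 was at 23530 in the P-rich cells and at 1155 and 1050 in the 22 and the 94. Clps was at 7522, 280 and 655, and Pnliprp2 at 3543, 85.1 and 434. Mmp7 instead was at 7391 in the P-rich cells, 3234 in the 22 and 742 in the 94. Genes shared with goblet cells had the same order on this scale. Spink4 was at 79510, 55460 and 9948, Retnlb, which encodes a secreted antibacterial protein, at 42250, 25520 and 3963, and Mptx1 at 56860, 30770 and 5250. A few of the 22 cells carried much of these sums. Of their 266 Mmp7 UMIs 160 lay in 2 cells, without which Mmp7 was at 1747, and of their 2531 Mptx1 UMIs 1602 lay in 2 cells, without which it was at 14420. Without the 2 cells richest in each, Retnlb was at 17920 and Spink4 at 43260. Per cell the medians were 4 Mmp7, 3.5 Mptx1, 17 Retnlb and 96 Spink4 UMIs. Of the 28 Ang4 UMIs 27 lay in 1 cell, which also held 39 of the 95 AY761184 UMIs. With CPM over all UMIs instead, the P-rich cells stood below the 22 for the genes shared with goblet cells. Spink4 was then at 34160 and 48680, Retnlb at 18150 and 22400, and Mptx1 at 24430 and 27010. Mmp7 kept its order, at 3176 and 2839.

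**Figure D5:**
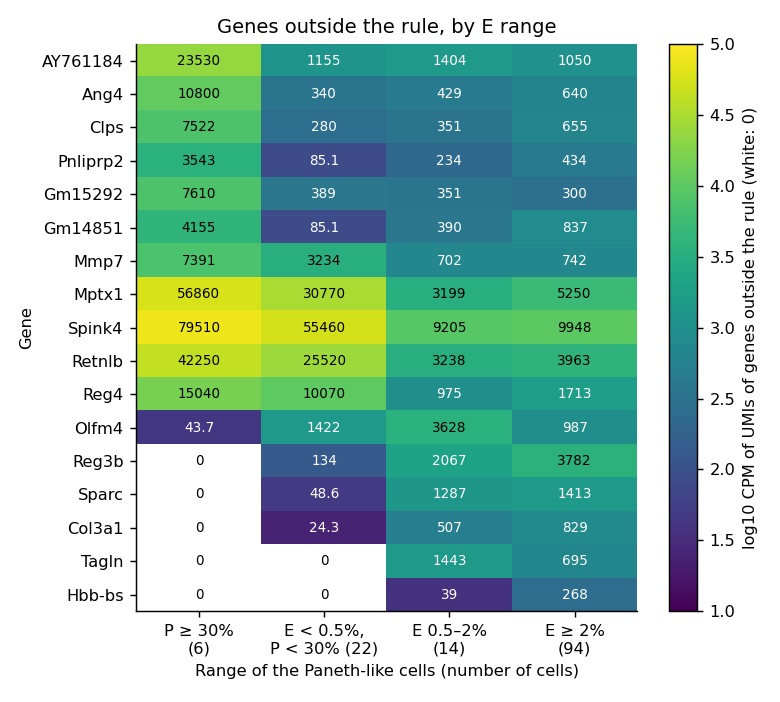
CPM over UMIs of genes outside the rule in the 4 ranges of Paneth-like cells, with the value printed in each field and the colour on a log10 scale. Ang4, Clps and Pnliprp2 peak in the P-rich cells, and Sparc, Col3a1, Tagln and Hbb-bs are at 0 there and above 0 at E of at least 2%.

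Of the 20 goblet genes outside the rule, 0 were 2-fold higher in the members than in goblet-like cells and 5 were lower, namely Tpsg1, Galnt12, Creb3l1, Bcas1 and Sytl2. The count lower was 11 without the deepest 10% of cells and 11 with the own sum at 2 times the next, and 9 by the mean of per-cell CPM. With both classes cut to E under 0.5%, 2 were higher and 3 lower. Tpsg1, a tryptase gene, was at 89.8 CPM against 264, 2.90-fold lower (2.01 to 4.47), and had 0 UMIs in the P-rich cells. Spink4, a secreted protease inhibitor, was at 24380 CPM against 17320, and Retnlb at 11300 against 6702, neither past 2-fold. Against enterocyte-like cells 14 of the 20 were higher and 0 lower, and Spink4 was 5.96-fold higher (5.77 to 6.16). In the uncut classes, for this and every list below, 9.19% of all genes compared were higher than in goblet-like cells and 7.47% lower. Against enterocyte-like cells these shares were 9.45% and 15.3%. Reg4, a lectin gene of secretory cells, was at 4377 CPM against 1628 in goblet-like and 718 in enterocyte-like cells. The genes with the lowest ratios to goblet-like cells included Serpina1b, a protease inhibitor, 5.52-fold lower (3.76 to 8.77), Scin, an actin-severing protein, 4.69-fold lower (3.52 to 6.53), and Rgs2, a regulator of G protein signalling, 4.14-fold lower (2.69 to 7.04). S100a6, a calcium-binding protein, was 3.33-fold lower (2.76 to 4.09).

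Enterocyte genes were low but present. Of 21 enterocyte genes outside the rule, 21 were at least 2-fold lower in the members than in enterocyte-like cells and none higher, with a median log2 ratio of -1.98. Slc10a2, the ileal bile acid transporter, was at 31.0 CPM against 213, 6.55-fold lower (3.69 to 14.4), and Apoa4, an apolipoprotein, at 306 against 1143. Ada, which encodes adenosine deaminase, was at 9.29 CPM from 3 UMIs against 103, 9.5-fold lower (3.72 to 54.1). Summed over the list, enterocyte genes came to 93.95 CPM in the P-rich cells, 331 in the other 22 with E under 0.5% and 8661 in the 94 with E of at least 2%, where each of the 94 cells had at least 3 such UMIs. The E sum chose these ranges, so this describes them.

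Most genes of the secretory machinery differed by less than 2-fold from both classes. Of 35 compared genes of endoplasmic reticulum folding and secretion, 0 were higher and 6 lower than in goblet-like cells (Hsp90b1, Pdia3, Sdf2l1, Manf, Rrbp1 and Kdelr3), with a median log2 ratio of -0.47. Hsp90b1, a chaperone, was at 505 CPM against 1127, 2.23-fold lower (1.90 to 2.65). Hspa5, the chaperone BiP, was at 415 against 751, and Xbp1, the transcription factor of the unfolded protein response on which Paneth cells depend, at 167 against 270, neither past 2-fold. Against enterocyte-like cells 1 of 35 was higher, Sec11c, and 0 lower. Of 12 exocytosis genes 5 were lower than in goblet-like cells, among them Rab27b at 74.3 against 191 CPM, while 6 were higher than in enterocyte-like cells and Stxbp2 lower. Among secretory lineage factors, Atoh1, which commits cells to secretion, was at 99.1 CPM against 198 in goblet-like and 34.6 in enterocyte-like cells, and Spdef, a goblet and Paneth factor, at 83.6 against 155 and 25.9. Against enterocyte-like cells 5 of 12 such factors were higher, with Sox9, Foxa1 and Foxa3 beside these.

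Genes by which Paneth cells signal to stem cells were at low counts. Wnt3, the Wnt ligand of Paneth cells, had 13 UMIs in 9 members, 9 of them in 5 of the P-rich cells, and stood at 40.2 CPM against 12.3 in goblet-like cells (3.29-fold, 1.42 to 7.52). Dll4, a Notch ligand, had 12 UMIs in 8 members. Dll1, another Notch ligand, had 3 UMIs and was at 9.29 CPM against 44.7. Egf had 1 UMI. Cd24a, a surface protein used to sort Paneth cells, was at 576 CPM (496 to 665) against 285 in goblet-like and 123 in enterocyte-like cells. Of 10 compared genes of this list 4 were higher and 1 lower than in goblet-like cells, and 4 higher and 2 lower than in enterocyte-like cells. Stem cell markers were also counted. Olfm4 was at 1040 CPM against 476 and 577, with 1 UMI in the P-rich cells, and Lgr5 had 9 UMIs in 6 members, none of them P-rich.

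Of 30 antimicrobial and innate genes 9 reached 20 CPM in the members or in the class compared. Reg4 and Pla2g2f, a phospholipase gene, were higher than in goblet-like cells, and Duox2 and Lypd8 lower. Against enterocyte-like cells Reg4 and Pla2g2f were again higher, and Reg3a, Reg3b, Reg3g and Il18 lower. Lypd8, a protein that binds flagella, was at 972 CPM against 2248. Nod2, the receptor of bacterial peptidoglycan fragments, had 0 UMIs, which allows up to 9.29 CPM. Of 10 metal genes 4 were higher than in goblet-like cells, namely the metallothionein genes Mt1 and Mt2 and the zinc transporter genes Slc30a1 and Slc30a2. Against enterocyte-like cells 0 were higher and 2 lower, the zinc importer genes Slc39a4 and Slc39a5. Slc30a2 was at 49.5 CPM from 16 UMIs against 5.26. Of 11 cell cycle genes 0 were past 2-fold against goblet-like cells (median log2 ratio 0.30), but 7 were higher with P, G and E together at 10% or more (median 1.09). Against enterocyte-like cells 6 were higher. The P-rich cells held 0 Mki67, Top2a and Stmn1 UMIs and 1 UMI each of Cdk1 and Pcna. The other 22 members with E under 0.5% held 24 Mki67, 18 Top2a and 42 Stmn1 UMIs, and the 94 with E of at least 2% held 10, 6 and 38. Of 9 compared autophagy genes Sqstm1 was higher than in goblet-like cells, and none was past 2-fold against enterocyte-like cells. A single gene past the fold in lists this short is near the share over all genes. That share was 9.19% higher than in goblet-like cells and 15.3% lower than in enterocyte-like cells. Of 14 compared stress and immediate early genes 5 were higher than in goblet-like cells, with Fos at 1201 against 588 CPM.

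Markers of other cells moved with the E ranges. All 8 compared stromal genes were at least 2-fold higher in the members than in goblet-like cells, with a median log2 ratio of 1.63. Sparc was at 669 CPM against 226 and Acta2, smooth muscle actin, at 452 against 94.8. Summed over the 9 stromal markers, the level was 18.8 CPM in the P-rich cells from 1 UMI, 74.7 in the other 22 with E under 0.5%, 4056 in the 14 with E from 0.5% to 2% and 4243 in the 94 with E of at least 2%. A stromal UMI was found in 89 of the 94 and in 3 of the 22. Enterocyte-like cells had a stromal sum of 1909 CPM beside 2322 in the members, and 1 of 8 genes, Pecam1, was 2-fold higher in the members (median 0.43). With both classes cut to E under 0.5%, the sum was 54.5 CPM from 8 UMIs in 28 members and 134.9 CPM from 88 UMIs in 134 goblet-like cells. There 2 stromal genes reached 20 CPM, of which 0 were higher in the members and 1 lower, and Sparc was at 27.2 against 36.8 CPM. Tagln, Tm4sf1, Adamts1 and Hbb-bs were among the 12 highest ratios over goblet-like cells, yet had 0, 2, 1 and 0 UMIs in those 28 members. Hbb-bs, a globin gene, had 34 of its 35 UMIs in the 94. B or plasma cell markers came to 1657 CPM in the 94 with a UMI in 49, and to 18.8 and 21.3 CPM in the P-rich cells and the 22. The part of these other transcripts in the levels summed over members was not tested.

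T cell and thymic epithelial markers were scarce. The 14 T cell markers came to 124 CPM in the members, with a UMI in 31 of 136, against 10770 CPM in T cell barcodes. Ptprc had 2 UMIs, at 6.19 CPM against 1530. Tbx21, whose promoter drives the Cre behind the sorted YFP, had 0 UMIs in 136 members, which allows up to 2.21% of cells with a UMI, and stood at 118 CPM in cKO T cell barcodes. No YFP or Cre feature was analysed here. Of the 14 thymic epithelial markers 4 were detected. Foxn1, Psmb11, Aire, Fezf2, Krt5, Krt14, Trp63, Pax9, Pax1 and Cd80 had 0 UMIs, and 94 of the list's 107 UMIs were of Ccl25, a chemokine that enterocytes also make. Epcam, a marker of any epithelium, had a UMI in 127 members at 1560 CPM, and the intestinal factors Cdx1 and Cdx2 were each at 83.6 CPM. Of 8 tuft cell markers 1 was detected, with 2 UMIs. The 10 enteroendocrine markers came to 421 CPM in the members, with a UMI in 69, beside 504 in goblet-like and 313 in enterocyte-like cells. Of 3 compared with goblet-like cells, Chga and Chgb were higher and 0 lower. Of 5 compared with enterocyte-like cells, Chgb was higher, and Pyy and Nts were lower. The 94 members with E of at least 2% held 32 Chgb and 11 Chga UMIs, and the other ranges held 0.

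Ets1, the floxed gene, stood at 49.5 CPM (28.3 to 80.4) in the members, from 16 UMIs in 15 cells. It was at 38.6 in goblet-like, 34.6 in enterocyte-like, 174 in cKO T cell and 502 CPM in control T cell barcodes. Since the control library had no member, Ets1 could not be compared between genotypes in these cells.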

How the data were processed

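Each library was a 10x Genomics 3' v2 library of sorted thymocytes, deposited as a matrix of UMI counts per gene and barcode. Per the submitters' processing notes, Cell Ranger 2.1.1 was used on mm10, while the matrix header names version 3.0.0. This difference was not resolved. The deposited counts were used without batch correction, and no doublet caller was run, so doublets may be among the members. Counts were summed over the cells of a class and divided by their summed UMIs to give CPM. Ratios had 0.5 added to each count. A gene was compared where it reached 20 CPM in the higher class, and it was called higher or lower from 2-fold. Genes of the rule were left out of those counts. Intervals were exact (Poisson, conditional binomial or Clopper-Pearson), and a count of 0 was read as at most 3 counts. Reads per UMI were not given in the sources used here. The named genes were those of the rule, the 12 highest and 12 lowest ratios over goblet-like cells and the 8 of each over enterocyte-like cells at 100 CPM or more, and up to 5 of each list by CPM. Other genes were named after their values were seen. The members and gene lists were chosen with earlier results of these data known. Scripts ran in Python 3.11.15 with pandas 2.3.3 for tables, scipy 1.17.1 for intervals, numpy 2.4.6, Biopython 1.88 for alignments and matplotlib 3.10.9, and were tested on simulated counts.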

Additional observations from a re-analysis of the deposited data

Results flagged for a closer look

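Barcodes outside the filters also met the gut part of the rule. In the cKO library 47 barcodes with more than 10% mitochondrial UMIs met every other condition for a Paneth-like cell, against 0 in the control library. A further 78 cKO barcodes with fewer than 500 genes did so, of 3830 such barcodes in that library, against 0 in the control. These barcodes entered none of the comparisons, and they drew attention because their signal lies outside the cells described and above the control.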

How the results depend on the processing

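The number of members was 214 with a minimum of 200 genes, 41 with 1000 genes, 45 at 5% mitochondrial UMIs or less, 179 at 20%, 183 with no such limit, 108 with the 3 sums at 10% or more, 52 with P at 2 times the next sum and 107 with Lyz1 left out of P. Genes higher than in goblet-like cells numbered 1280 without the 10% of cells with most UMIs, 900 by the mean of per-cell CPM, 170 from 50 CPM and 221 from 3-fold, beside 564. Genes lower numbered 815 in cells of 2000 UMIs or more, 1129 with the own sum at 2 times the next, 178 from 50 CPM and 109 from 3-fold, beside 458. Against enterocyte-like cells, genes higher numbered 980 in cells of 2000 UMIs or more, 1074 without the deepest 10%, 919 at 20% mitochondrial UMIs, 893 with CPM over genes outside the rule, 188 from 50 CPM and 223 from 3-fold, beside 591. Genes lower numbered 1571, 552 and 1707 in cells of 2000 UMIs or more, without the deepest 10% and with the own sum at 2 times the next, then 553 from 50 CPM and 396 from 3-fold, beside 957. Some alternatives were chosen after seeing the data. With members and goblet-like cells both cut to E under 0.5%, 1179 genes were lower, and with the members alone cut, since enterocyte-like cells have high E by the rule, 936 were higher and 2075 lower than in enterocyte-like cells. Requiring the counting interval to exclude 1 left 293 genes lower than in goblet-like cells.

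With members and goblet-like cells both at E under 0.5%, log2 ratios changed sign to -2.60 for Tagln, -2.24 for Acta2, -1.31 for Col1a2, -1.14 for Col3a1 and -0.29 for Sparc. The members then held 0 Tagln, Acta2 and Col1a2 UMIs, so those sizes depend on the 0.5 added, and the intervals of the ratios of all 5 genes include 1. In cells of 2000 UMIs or more Ccl21a was at -1.33. With the own sum at 2 times the next, Igha was at 1.95, Jchain at 1.17 and Cd79a at 0.13. Ratios were left out where both classes had 3 counts or fewer. Of 105 named ratios 76 kept their direction in that matched cut, and the other settings ranged from 110 of 127 in cells of 2000 UMIs or more to 132 of 134 without mitochondrial and ribosomal genes. Of 35 folding and secretion genes 14, not 6, were lower than in goblet-like cells with the own sum at 2 times the next. Stromal genes lower than in enterocyte-like cells numbered 8 of 8 when the members alone were cut to E under 0.5%. The cause of these shifts was not tested. No paired analysis was possible because each genotype had 1 library. Depth limits the rarest genes, since 3 counts over the members equal 9.29 CPM.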
